A study of Bos taurus with 8 samples.

Results

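Chromatin modifier and remodeler genes encode the enzymes that write, erase and read marks on histones and DNA, and the motors that move nucleosomes. The genes described here are those whose symbol on the bovine array belongs to 9 families: DNA methyltransferases (DNMT), SET domain proteins (SETD), lysine demethylases (KDM), lysine acetyltransferases (KAT), histone deacetylases (HDAC), sirtuins (SIRT), numbered bromodomain proteins (BRD), SWI/SNF-related proteins (SMARC) and TET dioxygenases. The rule used symbols only, and found 71 genes with 192 probes among 17019 named genes on the array. The study set blood kept with cowpea phenolic extract (CPE) against untreated blood (CONTROL), with 4 single-colour Cy3 arrays a group. Blood freshly drawn from 5 female Holstein Friesian cows stood for 30 min at 37 °C under 5% CO2, with leaf extract at 10 µg/ml in CPE and none in CONTROL. All of these animals had received a probiotic for 60 days beforehand, so both groups share that feeding. Pooled RNA of each group was hybridised, so nothing ties an array to a single cow: p-values measure the spread between arrays, which may be technical only. No label gives the age of the cows.

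Methyl groups on cytosines and on histone tails, and acetyl groups on histone tails, set how easily transcription factors and polymerase reach a gene. Methyltransferases and acetyltransferases add them, demethylases, deacetylases and sirtuins remove them, bromodomains bind acetylated lysines, and SWI/SNF motors use ATP to slide or evict nucleosomes. In blood these proteins act in the development of white cells and in the inflammatory response, and DNMT3A and TET2 are among the genes most often mutated in human clonal haematopoiesis.

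Each probe is an oligonucleotide of 60 bases. The sequences below were picked from members that changed beyond the threshold, with further probes where the probes of a gene are set side by side. They come from the deposited table, run 5′ to 3′ in lower case, and no stretch is capitalised. Probes that may lie outside the coding sequence are given by their first 30 bases, the others whole. Where a probe lies in its transcript could not be looked up, so the printed length does not show that a probe is coding.
DNMT3A, first probe: atcagtcccacacgcacacacaggaacatg
DNMT3A, second probe: tcttcattcccaatttctcacattagccga
SETD5, first probe: ctcaagtggagtgtttacaccttgctgtaa
SETD5, second probe: atctgcggtttccaattcacagcactaccc
SETD1A: tgtacatatgttaatagtgcaaacctgacg
KDM6A, first probe: tcagaattttccttgggaaaaaatactagc
KDM6A, second probe: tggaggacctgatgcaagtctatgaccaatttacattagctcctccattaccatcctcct
KDM6A, last probe: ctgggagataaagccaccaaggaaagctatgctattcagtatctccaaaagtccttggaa
KDM5A, first probe: ctgctacaggtgcttagtccccggactgac
KDM5A, second probe: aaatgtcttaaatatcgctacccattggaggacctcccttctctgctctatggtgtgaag
KDM5A, last probe: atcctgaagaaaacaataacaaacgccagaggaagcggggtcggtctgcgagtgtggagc
KDM5B: ctgtgaacggtgctatttctattccttacg
HDAC2: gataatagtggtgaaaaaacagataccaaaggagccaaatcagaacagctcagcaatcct
SIRT6: tttttcttaccggtctcactttgttactca
BRD8, first probe: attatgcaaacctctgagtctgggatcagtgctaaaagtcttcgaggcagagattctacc
BRD8, second probe: gatttagtaatttggaagggagtgcccgtg
SMARCAL1: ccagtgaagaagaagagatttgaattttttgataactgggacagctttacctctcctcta

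Large areas of the arrays were dim, so values were read only from spots in bright surroundings on all 8 arrays, called lit here: 13028 of 43803 spots, or 29.7%. The lit share of an array was 43.2% to 50.2% in CPE and 31.9% to 40.8% in CONTROL. A level is the log2 processed signal minus the 75th percentile of the array's lit spots, whose linear value was 399 to 749 in CPE and 585 to 766 in CONTROL. Arrays correlated at 0.970 to 0.998 within CPE, at 0.985 to 0.997 within CONTROL and at 0.921 to 0.973 between the groups. CPE array 3 and CONTROL array 4 stood apart from the others of their group: limma gave them array weights of 0.0765 and 0.197, against 0.345 to 5.99 for the rest. Each group lay on a slide of its own, so slide and treatment cannot be told apart in any comparison below. Because blood is a mixture, fewer cells of a type and less RNA per cell cannot be told apart either. The number of arrays and the signal over background limit the precision of every value.

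A gene was tested when a lit probe was well above background on all 8 arrays, and the brightest such probe stands for it. This held for 25 of the 71 chromatin genes. Another 13 had a lit probe that was close to background on at least 1 array: BRD3, HDAC4, HDAC11, KAT6A, KDM3B, KDM4A, KDM4B, KDM4C, SETD4, SETD7, SETD9, SMARCA1 and SMARCC2. The other 33 had no probe lit on all arrays, which says nothing about their expression, since 8 of these 33 had a probe well above background on all 8 arrays. They include BRD2, BRD7, DNMT3B, DNMT3L, HDAC1, HDAC5, HDAC7, HDAC9, KAT2A, KAT5, KAT6B, KAT8, KDM1B, KDM2B, KDM3A, KDM4D, KDM5C, KDM8, SETD1B, SETD2, SETD3, SETD6, SIRT3, SIRT5, SMARCA2, SMARCA5, SMARCAD1, SMARCB1, SMARCD1, SMARCD3, SMARCE1 and TET2, the only TET gene among the members. Acetyltransferases were the least covered family of more than 1 gene, with 1 of 6 tested, and sirtuins the best, with 5 of 7.

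**Figure D1:**
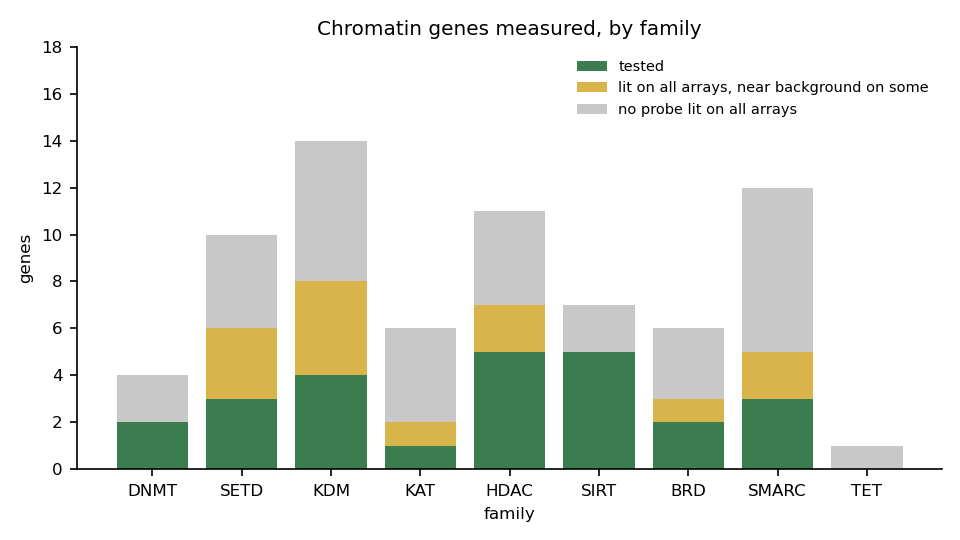
Number of chromatin genes per family (y axis) that were tested, lit on all arrays but near background on some, or without a probe lit on all arrays. The 14 KDM genes yielded 4 tested genes, the 7 SIRT genes 5, and the single TET gene none.

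Of the 25 tested chromatin genes, 5 were higher in CPE, 6 were lower and 14 did not pass an adjusted p of 0.05 (limma, Benjamini-Hochberg over all genes tested). That is 44%, against 46.9% of the 4832 genes tested on the array, of which 23.7% were higher and 23.3% lower. The chromatin genes were therefore called about as often as the array as a whole. Their median log2 change, CPE minus CONTROL, was -0.09, against 0.02 over all genes tested, and the median size of the change was 0.31, against 0.33. The groups did not overlap for 10 of the 25, and for 49.2% of all genes tested. Changes of at least 2-fold were seen for 1 gene each way, SIRT6 higher and DNMT3A lower. The split between higher and lower moved with the processing. It was 1 higher and 4 lower without scaling between arrays, 10 and 8 with local centring, 0 and 6 with normexp background correction (1 higher at an unadjusted p under 0.05, limma) and 8 and 10 with array weights. Over the whole array, which admits other spots and shifts the median of all genes to -1.03, it was 1 and 17 of 34. The counts over all genes moved as well. Of 4832 genes, 186 were higher and 524 lower without scaling, and 668 and 592 with normexp. Local centring gave 2239 higher, and the whole array 122 higher and 2251 lower of 6090. Without CPE array 3 and CONTROL array 4 together, 6 chromatin genes were higher and 8 lower of 27. The number of chromatin genes higher was 2 when CPE array 1 or 4, or CONTROL array 1 or 2, was left out alone. It was 3 without CONTROL array 3. Over all genes, leaving out 1 array gave 905 to 1335 higher and 949 to 1333 lower.

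**Figure D2:**
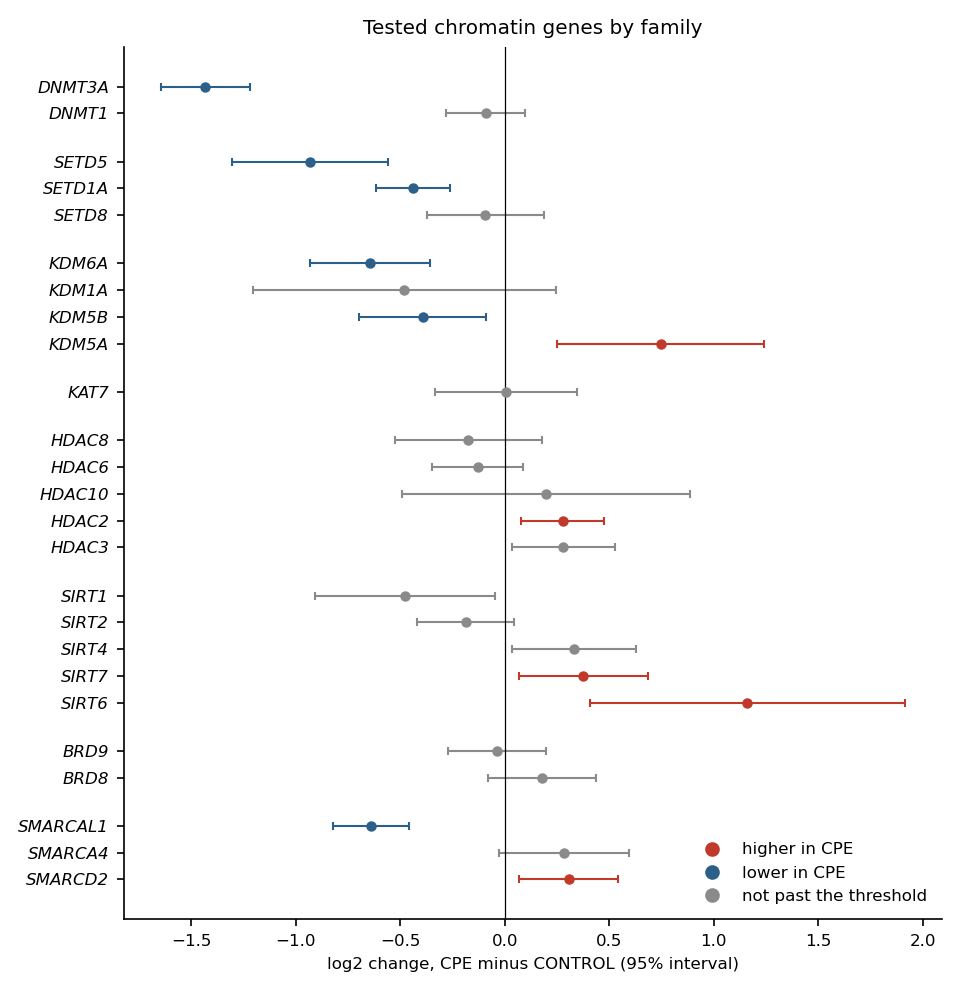
Log2 change, CPE minus CONTROL, of the 25 tested chromatin genes (x axis), grouped by family, with 95% intervals of the model over 4 CPE and 4 CONTROL arrays. Both tested SETD genes past the threshold lie left of 0, as does DNMT3A at -1.43, while SIRT6 at 1.16 lies farthest right with the widest interval.

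Among the DNA methyltransferases, DNMT3A, which sets new cytosine methylation, was lower in CPE, and DNMT1, which copies existing methylation at replication, did not pass. DNMT3A (NM_001206502) had levels of -2.55, -2.46, -2.39 and -2.65 on CPE arrays 1 to 4, against -0.98, -0.997, -1.11 and -1.23 on CONTROL arrays 1 to 4. Every CPE array lay more than a log2 unit below every CONTROL array. The change of -1.43 (SE 0.09, limma adjusted p = 1.21e-05) makes it 2.70-fold lower, the largest fall among the chromatin genes tested. It was read from 1 probe only. The second DNMT3A probe, which shares a run of no more than 5 bases with the first, was lit on 3 arrays of each group and changed by -0.10 there (SE 0.19, limma adjusted p = 0.706). This second probe was the brighter, with means of 0.61 in CPE and 0.70 in CONTROL, against -2.51 and -1.08 for the first. The first stands for the gene because the second was not lit on all arrays. These 2 probes of the transcript thus gave different values, and its remaining probe was lit on the 4 CPE arrays only and was not compared. With normexp background correction the first probe's change was -0.79.

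DNMT1 (NM_182651) averaged 2.16 ± 0.11 on the CPE arrays (SD, n = 4) and 2.25 ± 0.08 on the CONTROL arrays (SD, n = 4), a change of -0.09 with a 95% interval of -0.28 to 0.10. Its other tested probes changed by 0.03 and 0.47, and the probe at 0.47 passed the threshold when probes were tested singly (limma adjusted p = 0.0275).

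Of 10 SET domain genes, 3 were tested, and SETD5 and SETD1A were lower in CPE. SETD5, known in mouse to act with the HDAC3 corepressor complex, had levels of 0.97, 1.00, 0.30 and 1.02 on CPE arrays 1 to 4, against 1.65, 1.69, 1.76 and 1.89 on CONTROL arrays 1 to 4. All CPE arrays were lower, and CPE array 3 lay below the other CPE arrays. The change was -0.93 (SE 0.16, limma adjusted p = 0.00199), or 1.91-fold lower. The second SETD5 probe (both NM_001206005) had -0.26, -0.50, -0.50 and -0.18 on CPE arrays and 0.13, 0.10, 0.14 and 0.44 on CONTROL arrays. It fell by 0.56 (limma adjusted p = 0.00382 among probes), without overlap, so both probes moved the same way. With local centring the SETD5 change was -0.41, and over the whole array it was -2.05, or -1.02 relative to the median of all genes there, both past the threshold.

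SETD1A (NM_001205433) is a catalytic subunit of a complex that methylates histone H3 at active promoters. Its levels were 1.19, 1.16, 1.15 and 1.20 on CPE arrays 1 to 4, against 1.52, 1.58, 1.596 and 1.76 on CONTROL arrays 1 to 4. The CPE arrays lay close together, and all below CONTROL. The change was -0.44 (SE 0.08, limma adjusted p = 0.00199), and it lost the call only without scaling between arrays (-0.61, adjusted p = 0.117), among all settings tried. With local centring it was -0.19. SETD8, the methyltransferase of histone H4 now called KMT5A, averaged 1.48 ± 0.19 on CPE arrays and 1.57 ± 0.16 on CONTROL arrays (SD over 4 arrays), with overlapping groups.

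Of 14 demethylase genes, 4 were tested: KDM6A and KDM5B were lower in CPE, KDM5A was higher and KDM1A did not pass. KDM6A (NM_001206575), which removes the histone mark laid down by Polycomb, had 3 tested probes, as many as DNMT1, and all of them were lower. Its brightest probe had levels of -1.04, -1.29, -0.66 and -1.05 on CPE arrays 1 to 4, against -0.37, -0.33, -0.36 and -0.39 on CONTROL arrays 1 to 4. The CONTROL arrays lay close together and above every CPE array. The change was -0.65 (SE 0.13, limma adjusted p = 0.00338).

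The second KDM6A probe had -2.71, -2.73, -2.81 and -2.95 on CPE arrays, against -2.17, -2.16, -2.09 and -1.99 on CONTROL arrays. The KDM6A probe printed last had -3.79, -4.10, -3.53 and -3.89 on CPE arrays, against -2.69, -2.70, -2.601 and -2.35 on CONTROL arrays. Neither probe overlapped between the groups. They changed by -0.70 and -1.24 (limma adjusted p = 0.000288 and 0.000145 among probes). A further KDM6A probe was lit but close to background on some arrays and differed by -0.70, with overlapping groups and no test. KDM6A, SETD5 and SMARCAL1 kept their direction and passed the threshold in all 25 alternative settings. Of these, SMARCAL1 was read from 1 tested probe only.

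KDM5A (NM_001205625), which removes methyl groups from histone H3 at active promoters, was the demethylase that was higher. Its levels were 2.82, 3.23, 3.31 and 2.89 on CPE arrays 1 to 4, against 2.57, 2.50, 2.54 and 1.65 on CONTROL arrays 1 to 4. The groups did not overlap, and CONTROL array 4 lay well below the other CONTROL arrays. The change was 0.75 (SE 0.22, limma adjusted p = 0.0214). It was 0.53 without CONTROL array 4, 0.44 without CPE array 3 and CONTROL array 4 together, 0.38 with array weights and -0.03 with local centring, and the call was lost without CPE array 2 (0.69, adjusted p = 0.0523), without scaling (0.57, adjusted p = 0.198) and with normexp (0.59, adjusted p = 0.0755). Over the whole array the change was -0.38, or 0.66 relative to the median of all genes. A second KDM5A probe, lit on 4 CPE and 3 CONTROL arrays, changed by 1.18 (SE 0.16, limma adjusted p = 0.00107), and another by 0.39 (limma adjusted p = 0.103).

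KDM5B, the close relative of KDM5A with the same kind of substrate, moved the other way. Its levels were 0.91, 0.46, 1.12 and 0.90 on CPE arrays 1 to 4, against 1.17, 1.30, 1.28 and 1.21 on CONTROL arrays 1 to 4. CPE arrays were lower without overlap, CPE array 2 by the most. The change of -0.39 (SE 0.13, limma adjusted p = 0.0383) lost the call without CPE array 1 or 4 and without any single CONTROL array (-0.37 to -0.42, adjusted p = 0.0628 to 0.0909). The call was also lost without scaling (-0.57, limma adjusted p = 0.139). KDM1A, the flavin-dependent demethylase of the CoREST complex, had levels of -0.49, -0.54, -1.99 and -0.47 on CPE arrays and of -0.50, -0.47, -0.40 and -0.20 on CONTROL arrays. CPE array 3 alone lay far below, and the other CPE arrays overlapped CONTROL. Its second probe changed by 0.04.

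KAT7, which acetylates histones H3 and H4 with BRPF and JADE scaffold proteins, was the single acetyltransferase tested. It averaged 1.43 ± 0.09 on CPE arrays and 1.43 ± 0.31 on CONTROL arrays (SD over 4 arrays). The change of 0.01 had a 95% interval of -0.33 to 0.35.

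**Figure D3:**
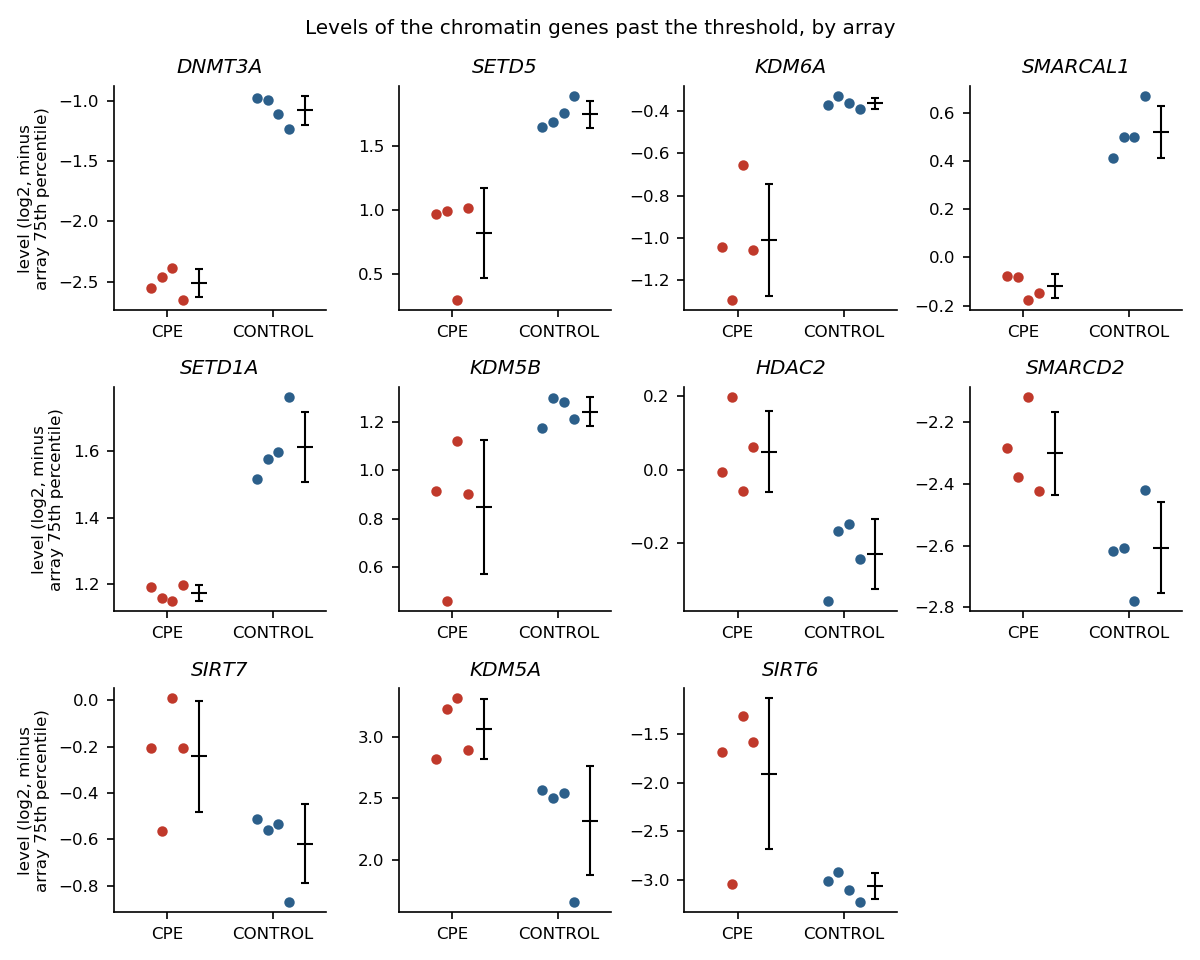
Levels of the 11 chromatin genes past the threshold on each array (y axis, log2 relative to the array's 75th percentile of lit spots), CPE left and CONTROL right, with the mean and SD of 4 arrays beside the points. Each panel has its own scale. DNMT3A, SETD5, KDM6A, SMARCAL1, SETD1A and KDM5B separate with CPE below CONTROL, while SIRT6, SIRT7 and SMARCD2 have at least 1 CPE array within the CONTROL range.

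Among 5 histone deacetylases tested, HDAC2 was higher in CPE and HDAC3, HDAC6, HDAC8 and HDAC10 did not pass. HDAC2 (NM_001075146) is a catalytic subunit of the SIN3, NuRD and CoREST corepressors. Its levels were -0.01, 0.20, -0.06 and 0.06 on CPE arrays 1 to 4, against -0.36, -0.17, -0.15 and -0.24 on CONTROL arrays 1 to 4. The groups did not overlap, but their nearest arrays lay close to each other. The change of 0.28 (SE 0.09, limma adjusted p = 0.0285) lost the call without CPE array 2 or 4 and without CONTROL array 1, 2 or 4 (0.23 to 0.30, adjusted p = 0.0503 to 0.0822). The call was also lost without scaling (0.10, limma adjusted p = 0.830) and with normexp (0.19, limma adjusted p = 0.139). Over the whole array the change was -0.84, or 0.19 relative to the median of all genes there.

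HDAC3, the deacetylase of the NCoR complex, had levels of 2.00, 1.99, 2.36 and 1.92 on CPE arrays and of 1.78, 1.79, 1.69 and 1.89 on CONTROL arrays. The groups did not overlap, and the difference of 0.28 (95% interval 0.03 to 0.53) did not pass (limma adjusted p = 0.061). HDAC6, a mainly cytoplasmic tubulin deacetylase, differed by -0.13 and HDAC8, which deacetylates cohesin, by -0.17. HDAC10, a polyamine deacetylase, had the widest spread of the family, with 0.15, -0.02, 0.98 and 0.08 on CPE arrays and 0.34, 0.34, 0.44 and -0.72 on CONTROL arrays. Its extreme values lie on the 2 arrays that stood apart. HDAC4 was well above background on all 4 CPE arrays and on no CONTROL array, but its measured means of -4.01 in CPE and -4.31 in CONTROL overlapped across arrays and give no bound on a fold. No test is given for HDAC4, because it passed a filter on 1 group only through its CPE arrays.

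Sirtuins are deacetylases that consume NAD. Of 5 tested, SIRT6 and SIRT7 were higher in CPE, and both had overlapping groups. SIRT6 (NM_001098084), a nuclear sirtuin that acts on histone H3, had levels of -1.69, -3.05, -1.31 and -1.58 on CPE arrays 1 to 4, against -3.01, -2.92, -3.11 and -3.23 on CONTROL arrays 1 to 4. CPE array 2 lay among the CONTROL arrays, and the other CPE arrays were above all of them. The change was 1.16 (SE 0.33, limma adjusted p = 0.0195), or 2.23-fold higher. The call was lost without CPE array 1 (1.09, adjusted p = 0.0504), without CPE array 4 (1.05, adjusted p = 0.0512), without CONTROL array 4 (1.11, adjusted p = 0.0519) and with normexp (0.65, adjusted p = 0.179), as it was without CPE array 3 and CONTROL array 4 together (0.91, adjusted p = 0.0844), and the change was 0.04 over the whole array, or 1.07 relative to the median of all genes there.

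SIRT7, the nucleolar sirtuin, changed by 0.38 (SE 0.14, limma adjusted p = 0.0485), with levels of -0.21, -0.56, 0.01 and -0.21 on CPE arrays, against -0.51, -0.56, -0.53 and -0.87 on CONTROL arrays. Leaving out any array but CPE array 2 ended the call (0.29 to 0.41, adjusted p = 0.0675 to 0.112). The call was also lost without scaling (0.20, limma adjusted p = 0.651) and with normexp (0.27, limma adjusted p = 0.167). SIRT1, the nuclear sirtuin that deacetylates histones and transcription factors, had -1.41, -1.39, -2.24 and -1.39 on CPE arrays, against -1.16, -1.20, -1.18 and -0.98 on CONTROL arrays. The groups did not overlap, but the difference of -0.48 (95% interval -0.91 to -0.05) did not pass (limma adjusted p = 0.067). Another SIRT1 probe was lit but not well above background on every array. It differed by 0.15, the other way, with overlapping groups and no test. SIRT2, mainly cytoplasmic, differed by -0.19, and the mitochondrial SIRT4 by 0.33, neither past the threshold.

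The bromodomain genes BRD8, a subunit of the TIP60 acetyltransferase complex, and BRD9, a subunit of a non-canonical SWI/SNF complex, did not pass. BRD8 averaged 1.47 ± 0.18 on CPE arrays and 1.29 ± 0.14 on CONTROL arrays by its brightest probe (SD over 4 arrays), a difference of 0.18. The second BRD8 probe had -2.95, -3.56, -3.12 and -3.38 on CPE arrays, against -2.29, -2.23, -2.36 and -2.14 on CONTROL arrays. It was lower on every CPE array (-1.002, limma adjusted p = 0.000452 among probes), which the brightest probe was not. BRD9 averaged 2.82 ± 0.13 on CPE arrays and 2.86 ± 0.15 on CONTROL arrays (SD over 4 arrays), and its second probe differed by 0.24 without passing.

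Of 12 SMARC genes, 3 were tested, with SMARCAL1 lower in CPE, SMARCD2 higher and SMARCA4 not past the threshold. SMARCAL1 (NM_176666) re-anneals DNA at stalled replication forks and is no subunit of the SWI/SNF complex. Its levels were -0.08, -0.08, -0.18 and -0.15 on CPE arrays 1 to 4, against 0.41, 0.50, 0.50 and 0.67 on CONTROL arrays 1 to 4. The groups were far apart relative to their spread. The change was -0.64 (SE 0.08, limma adjusted p = 0.000337), or 1.56-fold lower. It was read from 1 tested probe only. Another SMARCAL1 probe was lit but not well above background on any array, so no second probe was compared.

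SMARCD2 (NM_001205462), a SWI/SNF subunit needed for neutrophil development in human and mouse, had levels of -2.28, -2.38, -2.12 and -2.42 on CPE arrays 1 to 4, against -2.62, -2.61, -2.78 and -2.42 on CONTROL arrays 1 to 4. CPE array 4 and CONTROL array 4 had nearly the same level, so the groups touched. The change of 0.31 (SE 0.10, limma adjusted p = 0.0382) lost the call without CPE array 1 or 3 and without CONTROL array 1, 2 or 3 (0.25 to 0.31, adjusted p = 0.0525 to 0.107). The call was also lost without scaling (0.13, limma adjusted p = 0.768) and with normexp (0.24, limma adjusted p = 0.527). Over the whole array the change was -0.82, or 0.22 relative to the median of all genes there. SMARCA4, the BRG1 motor of SWI/SNF, averaged -2.50 ± 0.28 on CPE arrays and -2.78 ± 0.09 on CONTROL arrays (SD over 4 arrays). Its difference of 0.28 had a 95% interval of -0.03 to 0.59.

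**Figure D4:**
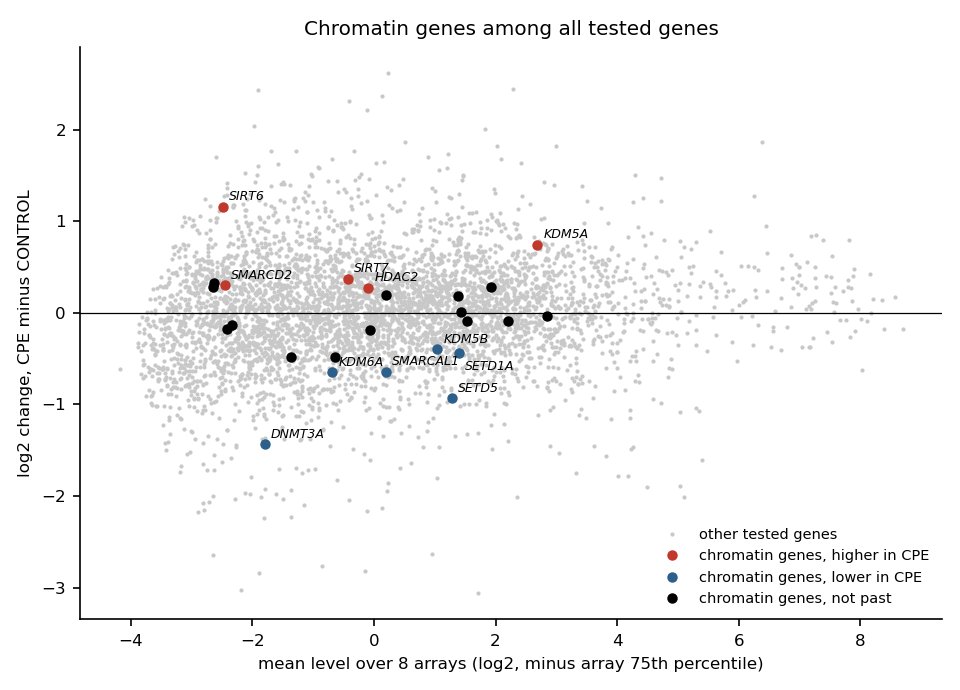
Log2 change, CPE minus CONTROL (y axis), against the mean level over 8 arrays (x axis) for the 4832 genes tested, with the 25 chromatin genes in colour or black and those past the threshold named. The chromatin genes lie within the cloud of the other genes at every level.

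Of the chromatin genes, 6 had several tested probes, and the probes of a gene moved to the same side for 2 of these 6, KDM6A and SETD5. The median gap between the lowest and the highest probe of a gene was 0.54 log2 units. That gap exceeds the change of most chromatin genes read from 1 probe. Over the 33 tested chromatin probes, the change was higher at higher GC content of the probe (Spearman 0.43), and over all 7197 tested probes the same coefficient was -0.04. The 13 chromatin probes of at most 40% GC had a median change of -0.39, and the 20 of higher GC one of 0.11. These probes share the same 8 arrays and some share a gene, so the correlation is a description.

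KDM4B, a demethylase, could not be tested because 1 CONTROL array was close to background. Its levels were -1.45, -1.17, -0.77 and -1.55 on CPE arrays 1 to 4, against -2.94, -2.68, -2.80 and -4.73 on CONTROL arrays 1 to 4. All CPE arrays were higher, and CONTROL array 4, the one close to background, lay lowest. No test is given, because KDM4B passed a filter on 1 group only through the CPE arrays, where it is high. Spots lit on at least 2 arrays of each group, an alternative chosen after seeing the data, added 5 chromatin genes. BRD3, an acetyl-histone reader, was higher by 0.63 there on 2 arrays a group (SE 0.14, limma adjusted p = 0.0236), and HDAC7, KAT8, SMARCAD1 and SMARCC2 did not pass.

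Partners of these genes were counted in 10 further lists, of which 81 genes were tested: 12 were higher in CPE, 23 lower and 46 did not pass, with a median of -0.05. Over all genes tested 23.7% were higher and 23.3% lower. Among SWI/SNF partner subunits outside SMARC, 2 were higher and 2 lower of 5: ACTL6A (0.84) and BCL7C (0.42) were higher and ARID1A (-0.59), a DNA-binding subunit, was lower. Of 8 CHD helicases and NuRD subunits, the motor CHD4 was higher (0.77), and MTA1 (-0.91) and CHD8 (-0.69) were lower. Of 7 ISWI, INO80 and SRCAP genes, BAZ1A (0.80) and YEATS4 (0.66) were higher and INO80 (-0.52) lower. The 10 Polycomb genes split into 2 higher, YAF2 (0.94) and CBX7 (0.68), and 2 lower, PCGF5 (-0.72) and AEBP2 (-0.40). Among 14 other histone methyltransferase genes, 1 was higher, PRMT7 (0.26), and 4 were lower, with SETMAR at -1.04 and ASH1L at -0.52. Among 14 other acetyltransferase genes, 1 was higher and 6 were lower, among them TRRAP (-0.66), NCOA2 (-0.59) and the coactivator CREBBP (-0.53). Of 9 genes of the deacetylase corepressors, SAP18 was higher (0.26) and BRMS1 (-1.13) and GPS2 (-0.55) were lower. Of 5 JmjC proteins outside KDM, PHF8 was higher (0.81) and 3 were lower, with JMJD7 at -1.64 and PHF2 at -0.84. ZBTB4 (-0.62), 1 of 5 readers of methylated DNA, was lower, and DAXX (0.67), 1 of 5 heterochromatin and bromodomain readers, was higher.

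Of the markers of blood cell types on the array, 8 of 12 T cell, 4 of 11 neutrophil, 5 of 8 B cell, 4 of 8 monocyte, 2 of 8 red cell and 1 of 6 platelet markers could be tested, against a background of 23.7% higher and 23.3% lower over all genes tested. Of the 8 T cell markers, 6 were higher in CPE, with CD5 (1.36), CD3D (1.04) and CD3G (0.99) ahead, and LCK and TCF7 did not pass. Their summed linear level was 63.5 to 70.3 in CPE and 47.3 to 51.0 in CONTROL. Of the 4 neutrophil markers tested, S100A12 and BPI were higher and CSF3R and CXCR2 lower, with a summed level of 102 to 116 in CPE and 97.1 to 106 in CONTROL. Of 4 monocyte markers, FCN1 was higher (0.29) and CSF1R lower (-0.74). Of 5 B cell markers 0 passed in limma (0 at an unadjusted p under 0.05), as for both red cell markers tested (0 unadjusted), and PPBP, the platelet marker tested, was higher. No summed level was at 0 in either group. The part of cell type makeup in the changes of the chromatin genes was not tested.

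**Figure D5:**
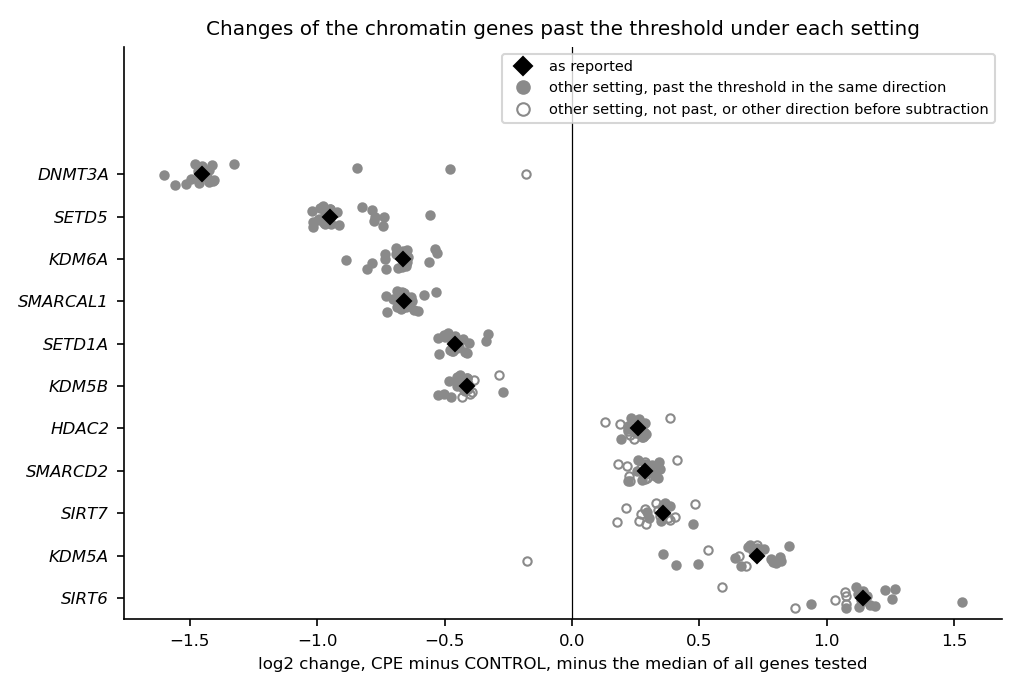
Log2 change, CPE minus CONTROL, of the 11 chromatin genes past the threshold, minus the median of all genes tested (x axis), under each processing setting. Diamonds mark the values as reported, filled circles alternatives past the threshold in the same direction, and open circles the rest. KDM6A, SETD5 and SMARCAL1 have filled circles only, and SIRT7 has the most open ones.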

How the data were processed

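RNA of bovine whole blood was read on 8 Agilent arrays, 4 CPE and 4 CONTROL, grouped by their labels. The authors' deposited scanner files give signal intensity per spot, made with Agilent Feature Extraction 10.10.1.1 per the submitters' processing notes. The processed signal is background-subtracted and spatially detrended per the file headers and is not scaled between arrays. Scanner flags in the deposited files (other units) mark outliers and spots well above background. The authors' deposited table of log2 averages per group served for symbols and probe sequences. In that table CPE was lower in 131 of 192 chromatin probes (68.2%) and in 34325 of 43653 probes overall (78.6%). No positions are given, since the builds of the array grid and of the table used for names differ.

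To find lit spots, log2 of the raw median intensity was taken over the 61 spots nearest to each spot, and its 90th percentile had to exceed the array's own 90th percentile of such values minus 1.5 log2 units. Outlier spots, 12 to 73 an array, were left out. Log2 processed signal minus the array's 75th percentile over lit spots was averaged per probe and fitted with limma 3.58.1 in R 4.3.3 (two-sided, Benjamini-Hochberg, 0.05), after the fit was tested on simulated data. Of 43653 probes, 26832 were named through their accession and 8778 had no name.

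The chromatin genes and all lists were chosen with earlier results of these data known. Values are given per array for up to 3 rises and 3 falls per family among genes past the threshold without overlap, for further lists for up to 2 each way. SIRT6, SIRT7, SMARCD2, CREBBP, the second probes and genes not past the threshold are given beyond that rule, chosen after their values were seen. Alternatives covered filters, scaling, background, the lit area, variance, array weights, replicate number and leaving out arrays. Normexp used median signals, since mean signals are not in the columns used here. An item among the untested genes is not reported here.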

Additional observations from a re-analysis of the deposited data

Results flagged for a closer look

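In 11 of 50 groups of 4 arrays, 1 array's level of a chromatin gene lay far from the other 3 (Dixon's test at the 95% level). Chance flags about 5% of such groups when they are independent, but these groups share the same 8 arrays. The share flagged over all genes tested is not given. The flags therefore cannot be read as particular to the chromatin genes. CONTROL array 4 accounts for 6 of the 11, CPE array 3 for 4 and CPE array 4 for 1. CONTROL array 4 and CPE array 3 also stood apart over all genes.

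On CPE array 3, HDAC10 was at 0.98 (median of the other CPE arrays 0.08), KDM1A at -1.99 (-0.49), SETD5 at 0.30 (1.00) and SIRT1 at -2.24 (-1.39). On CPE array 4, KAT7 was at 1.29 (1.48). On CONTROL array 4, BRD8 was at 1.09 (median of the other CONTROL arrays 1.36), DNMT1 at 2.36 (2.21), HDAC10 at -0.72 (0.34), KDM5A at 1.65 (2.54), SIRT1 at -0.98 (-1.18) and SIRT7 at -0.87 (-0.53). Without both of these arrays 6 chromatin genes were higher and 8 lower of 27, and 1590 of 4972 genes overall were higher and 1455 lower. The cause of these deviations was not tested.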

How the results depend on the processing

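Across 25 alternative settings the number of chromatin genes higher in CPE, 5 as reported, was within 1.5 times of that in 13, and the number lower, 6 as reported, in 23. Over all genes tested, the number higher stayed within 1.5 times in 20 settings, and the number lower also in 20. The next counts are of chromatin genes. The number higher was 1 without scaling, 0 with normexp (limma; 1 of 25 at an unadjusted p under 0.05), 1 over the whole array, 3 with a lit limit of 2 log2 units, 10 with local centring, 8 with array weights and 3 with the replicate number as a block. Leaving out 1 array gave 2 to 5 higher and 5 to 7 lower. The number lower was 17 over the whole array and 10 with array weights. The median change of the chromatin genes was -1.19 over the whole array, where that of all genes was -1.03. Over all genes, 1144 were higher and 1124 lower. The number higher was 186 without scaling, 668 with normexp, 122 over the whole array, 2239 with local centring and 1826 with array weights, and the number lower was 2115 with no filter on dim probes, 524 without scaling, 592 with normexp, 2251 over the whole array and 1691 with array weights. Leaving out 1 array gave 905 to 1335 higher and 949 to 1333 lower. The whole array turned HDAC2 (-0.84), KDM5A (-0.38), SIRT7 (-0.75) and SMARCD2 (-0.82), and local centring turned KDM5A (-0.034). The whole-array shifts follow the median of all genes, -1.03: relative to it HDAC2 was at 0.19, KDM5A at 0.66, SIRT7 at 0.29 and SMARCD2 at 0.22. The cause of the KDM5A turn was not tested. Without a turn in direction, calls were lost in 16 settings for SIRT7, 11 for SMARCD2, 10 each for HDAC2 and KDM5B, 6 for SIRT6 and 3 for KDM5A. SIRT6 could be read in only 24 settings, since it was not tested with the stricter lit limit of 1 log2 unit. The DNMT3A call was lost only with spots lit on at least 2 arrays of each group, where its second probe stood for it (-0.10). The whole-array change of DNMT3A was -1.51, or -0.48 relative to the median of all genes there. It lay near the second probe's difference of -1.51 in the authors' averages, where the first probe had -2.55. That call is therefore no further reading of the first probe's fall. Array numbers are shared between groups. Same-numbered arrays correlated in their deviations at -0.19 to 0.41, and 4 of 8 arrays correlated best with their own number. Those matches are the pairs numbered 3 and 4, each counted from both sides. These correlations differ in sign and include the 2 arrays that stood apart, so they cannot decide whether arrays are paired. With the replicate block, 3 chromatin genes were higher and 6 lower.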
